A study of Musca domestica with 16 samples.

Results

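Ovary-restricted genes of the house fly, Musca domestica, are described here across ovaries, testes and heads. A gene was taken when it had at least 20 FPKM (fragments per kilobase of transcript, scaled to library size) in the ovary libraries of both strains, and when its value in each of the 6 testis and head columns was at most 10% of the lower ovary value. Genes of the deposited class sco on chromosome III and all genes on the X chromosome were left out beforehand. In all, 180 of 14631 genes met the rule, out of 13470 left by these exclusions and 4467 with 20 FPKM or more in both ovary libraries. A further 25 genes met the FPKM limits and were left out as sco genes of chromosome III. The genes were thus chosen by these ovary, testis and head levels, which are given as a description that supports nothing by itself.

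Messenger RNA came from 16 libraries of unmated adults, 4 to 6 days old and kept at 25 °C, of 2 strains. They are told apart by where the gene for maleness sits. Strain CSaY has YM males, with the determiner on the Y chromosome, and strain CS has IIIM males, with it on chromosome III. The groups were CSaY and CS ovaries with 1 library each, CSaY and CS testes with 3 each, CSaY and CS male heads with 3 each, and CSaY and CS female heads with 1 each. The authors' deposited table holds 1 FPKM value for each of these 8 groups, so the spread among the 3 male libraries of a group is not known, and each female value is a single library with no replicate.

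In flies such as Drosophila an ovary is a set of strings of egg chambers, in which germline nurse cells feed a growing oocyte and a layer of somatic follicle cells surrounds both. Nurse cells make the RNAs and proteins that are loaded into the egg and run the first hours of the embryo, before its own genome is active. Follicle cells help to supply yolk and build the eggshell. In whole ovaries, fewer cells of a type and less RNA per cell cannot be told apart.

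The best known member is bcd (LOC101896911), the only one of the 180 with an informative symbol. Its Drosophila counterpart, bicoid, is transcribed in nurse cells, and its RNA is anchored at the front of the oocyte to pattern the head and thorax. The bcd gene lay on chromosome II, on scaffold NW_004764550 between positions 317366 and 329223. It stood at 249.7 FPKM in the CSaY and 252.5 FPKM in the CS ovary library, against 0.577 FPKM in CSaY and 1.96 FPKM in CS testes, and it was listed at 0 in all 4 head groups. Of 10 lists of eggshell, maternal axis, germ plasm, egg activation, meiosis, sex determination, yolk, early zygotic, chromatin and zinc finger genes, only 3 had a symbol anywhere in the table. These were bcd for the maternal axis, yp3 for yolk and Sxl for sex determination, of which only bcd was a member. The lists were matched by house fly symbol only, and just 52 of 14631 genes had an informative symbol. A list without a symbol thus does not mean that its genes are absent from the table or from the members. Sxl, the switch of female development in Drosophila, stood at 100.7 FPKM in the CSaY and 97.9 FPKM in the CS ovary library, against 14.4 FPKM in CSaY and 16.6 FPKM in CS testes and 15.6 to 31.6 FPKM in the head groups, all above the limit. The other members are given by their gene IDs and, where the deposited table pairs them, by the FlyBase ID of the Drosophila ortholog. Zeros in the table may also be estimates that failed.

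As a check of the tissue labels, genes known from nerve cells were set against ovaries and heads. The neuropeptide gene pdf was listed at 0 in both ovary libraries and stood at 40.9 to 87.3 FPKM in the head groups. The sodium channel gene para-like stood at 0.162 FPKM in the CSaY and 0.293 FPKM in the CS ovary library. It had 18.2 to 56.2 FPKM in the head groups, but also 9.46 FPKM in CSaY and 11.0 FPKM in CS testes. Others did not mark heads: nAChRbeta3, a receptor subunit for acetylcholine, stood at 0.169 FPKM in the CSaY and 0.291 FPKM in the CS ovary library but at 122.1 FPKM in CSaY and 68.7 FPKM in CS testes, above its 21.2 to 44.6 FPKM in the head groups. IR25a, an ionotropic receptor gene, had 2.39 FPKM in the CSaY and 3.88 FPKM in the CS ovary library, 116.7 FPKM in CSaY and 113.2 FPKM in CS testes, and 5.30 to 11.4 FPKM in the head groups. MdRdl did not mark heads either, with 0 in both ovary libraries and only 0.107 to 0.570 FPKM in the head groups. Gr2 was higher in heads, at 3.19 to 10.6 FPKM, against 0.132 FPKM in the CSaY and 0 in the CS ovary library. The yolk protein gene yp3, made in Drosophila by fat body and follicle cells, differed between the ovary libraries, with 27.7 FPKM in CSaY and 108.9 FPKM in CS. Its testis values were 13.6 FPKM in CSaY and 7.05 FPKM in CS. In female heads it stood at 1328 FPKM in CSaY and 346.7 FPKM in CS, and in male heads at 3.82 FPKM in CSaY and 66.0 FPKM in CS. Whether the yp3 difference between the ovary libraries bears on the members was not tested.

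The members covered a range of more than 100-fold in the ovary. Their median was 80.7 FPKM in the CSaY library (lowest 21.2, highest 3506) and 82.0 FPKM in the CS library (lowest 20.5, highest 3838). Taking the lower of both ovary values, 55 members lay below 50 FPKM, 75 reached 100 FPKM and 6 reached 1000 FPKM. Together they made up 3.97% of the summed FPKM of all genes in the CSaY and 4.07% in the CS ovary library. In testes the same genes made up 0.123% in CSaY and 0.134% in CS, and in each of the 4 head groups less than 0.1%.

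The most abundant member was LOC101899903 (fly ortholog FBgn0022893, chromosome I). Its levels were 3506 FPKM in the CSaY and 3838 FPKM in the CS ovary library. Outside the ovary it was also the highest of the 180, with 295.9 FPKM in CSaY and 240.1 FPKM in CS testes and 131.5 to 190.5 FPKM in the head groups. This gene is thus restricted to the ovary by the ratio alone, at 11.8 times its highest other value, and is far from silent elsewhere.

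The second, LOC101895010 (FBgn0000405, chromosome V), had another profile. It stood at 3082 FPKM in the CSaY and 2949 FPKM in the CS ovary library, against 93.0 FPKM in CSaY and 123.7 FPKM in CS testes. In heads of either sex it did not reach 0.6 FPKM, so what was seen outside the ovary was nearly all in the other gonad. LOC101892110 (FBgn0011823, chromosome I) had the same shape at a lower level, with 837.3 FPKM in the CSaY and 990.7 FPKM in the CS ovary library, against 58.8 FPKM in CSaY and 79.1 FPKM in CS testes and at most 0.824 FPKM in the head groups.

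LOC101894204, which has no fly ortholog in the deposited table, was the most abundant gene of that kind. It stood at 1232 FPKM in the CSaY and 1203 FPKM in the CS ovary library, against 6.08 FPKM in CSaY and 6.16 FPKM in CS testes and 0.438 to 1.57 FPKM in the head groups. The other genes among the 10 highest were LOC101897812 (FBgn0011704), LOC101895329 (FBgn0250837), LOC101894498 (a group with 5 fly genes), LOC101901454 (FBgn0264493), LOC101895154 (FBgn0036689) and LOC101900260 (a group with 4 fly genes), with lower ovary values between 686.9 and 1382 FPKM. Of these, LOC101895154 was nearest to silence elsewhere, at 877.4 FPKM in the CSaY and 848.7 FPKM in the CS ovary library, against 1.54 FPKM in CSaY and 1.97 FPKM in CS testes.

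**Figure D1:**
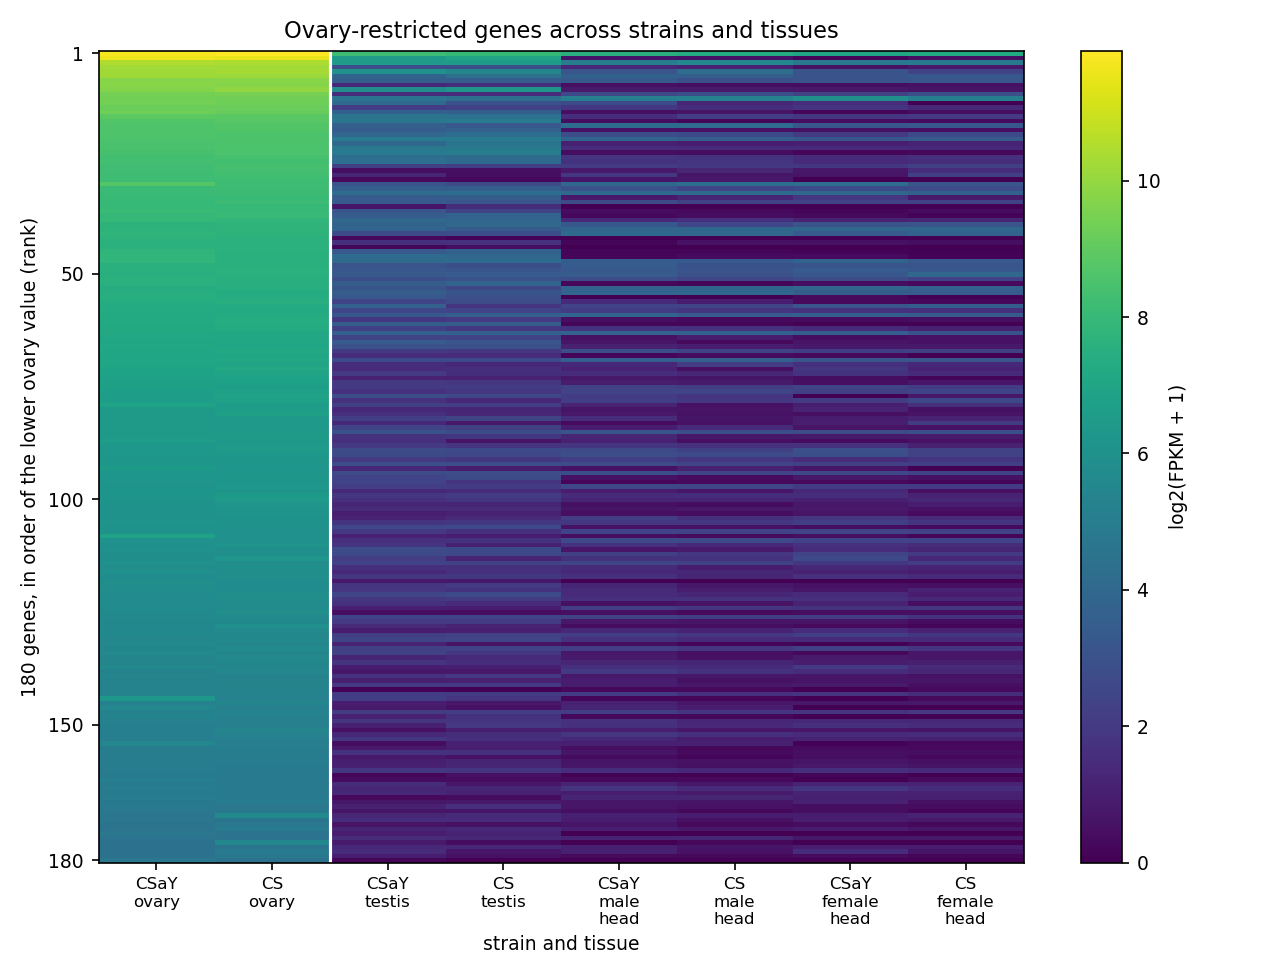
Level of each of the 180 ovary-restricted genes (rows, ordered by the lower ovary value) in the 8 groups (columns), coloured by log2(FPKM + 1). The ovary columns left of the white line are high because the rule chose them so. To the right, medians were 2.94 FPKM in CSaY and 2.76 FPKM in CS testes and between 1.11 and 1.39 FPKM in the head groups.

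The ratio of the lower ovary value to the highest other value had a median of 19.4 and ran up to 987.1. It reached 20 in 86 members, 50 in 27 and 100 in 12. The strongest restriction was shown by a pair of genes in 1 ortholog group (FBgn0000182), LOC101888541 and LOC101887307, on different scaffolds. LOC101888541 stood at 206.7 FPKM in the CSaY and 196.5 FPKM in the CS ovary library, against 0.199 FPKM in CSaY and 0.0699 FPKM in CS testes, and it was listed at 0 in all head groups. LOC101887307 stood at 194.2 FPKM in the CSaY and 192.5 FPKM in the CS ovary library, against 0.133 FPKM in CSaY and 0.352 FPKM in CS testes. No source says how reads were split between such copies, so the level of each is uncertain.

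Next came LOC101895154 with a ratio of 430.3 and LOC101901032 (FBgn0003114) with 376.0. LOC101901032 stood at 298.4 FPKM in the CSaY and 293.1 FPKM in the CS ovary library, against 0.248 FPKM in CSaY and 0.191 FPKM in CS testes, 0.592 FPKM in CSaY and 0.780 FPKM in CS male heads, and 0 in both female head libraries. It shares its locus with another gene of the table, as 25 of the 180 members do, and overlapping genes cannot be told apart with certainty. Besides bcd and LOC101888541, the genes LOC101896878, LOC101888272 and LOC101901276 were listed at 0 in all 4 head groups.

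Where the members were seen outside the ovary, it was mostly in testes. The highest other value lay in testes in 127 members, in male heads in 31 and in female heads in 22. As a share of the lower ovary value, the mean of the testis columns had a median of 3.86%, that of the male head columns 1.82% and that of the female head columns 1.52%. Genes at large also stood higher in testes. Over all genes left by the exclusions the median was 6.53 FPKM in CSaY and 6.43 FPKM in CS testes. It was 4.66 FPKM in CSaY and 4.49 FPKM in CS male heads, and 3.89 FPKM in CSaY and 3.91 FPKM in CS female heads. The rule used all of these columns. By a limit of 1 FPKM in at least 1 group, 112 members were seen in testes and heads, 46 in testes but not heads, 7 in heads but not testes and 15 in neither. Both bcd and LOC101895010 were among the 46, and LOC101901032 was among the 15.

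The largest of the 7 genes seen in heads but not testes was LOC101889191 (FBgn0000826). It stood at 305.3 FPKM in the CSaY and 332.5 FPKM in the CS ovary library, against 0.351 FPKM in CSaY and 0.401 FPKM in CS testes and 0.712 to 1.89 FPKM in the head groups. All 7 have a fly ortholog, as have 89 of the 112 (79.5%), 31 of the 46 (67.4%) and 8 of the 15 (53.3%). The 15 genes seen in neither tissue were also of lower abundance, with a median lower ovary value of 31.5 FPKM, while that of the 112 was 84.7 FPKM. The rule also caps the other values lower where the ovary level is lower.

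The authors' deposited test of pooled ovaries against pooled testes called 169 of the 180 members higher in ovaries at q below 0.05. Over all 10586 tested genes 41.3% were called in that direction. The rule used this contrast, so nothing is read from the count. The 11 members that were not called included LOC101901032, at 346.7 FPKM in pooled ovaries and 0.221 FPKM in pooled testes, and LOC101896031, at 361.8 FPKM in pooled ovaries and 0.844 FPKM in pooled testes. Their q values were 0.250 and 0.0516 in the authors' deposited table. All of these 11 stood at 2.01 FPKM or less in pooled testes.

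Ovary levels of the members were much alike in the CSaY and CS ovary libraries. The rule used both of these columns, each with the limit of 20 FPKM, and set the other groups against the lower value. A gene much lower in 1 of these libraries was thus less likely to become a member. How much of the likeness comes from the rule was not tested. None of the 180 was called between the CSaY and CS ovary libraries, where the authors called 28 of 7831 genes (0.358%). That test set 1 library against 1 library, so it compares those libraries and not the strains. The ratio of CSaY to CS had a median of 0.989, with its middle quartiles from 0.923 to 1.05, and 123 members (68.3%) lay within 1.1-fold and 167 (92.8%) within 1.25-fold. Of the 4467 genes with 20 FPKM or more in both ovary libraries, 4 were called (0.0895%). Among them 67.6% lay within 1.1-fold and 92.9% within 1.25-fold, shares close to those of the members. On the log2(FPKM + 1) scale the median difference, CSaY minus CS, was -0.02 over the members and -0.01 over those 4467 genes.

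A difference of 1.5-fold or more was seen in 4 members (2.22%), 2 in each direction. Of the 4467 genes with 20 FPKM or more in both ovary libraries, 75 (1.68%) differed that much, a share near that of the members. LOC101895615 on chromosome III stood at 80.5 FPKM in the CSaY and 37.6 FPKM in the CS ovary library, a ratio of 2.14 (q = 0.258 in the authors' deposited table). LOC101897048 (FBgn0036690) stood at 114.2 FPKM in the CSaY and 63.6 FPKM in the CS library, a ratio of 1.80. In the other direction, LOC101890459 stood at 21.8 FPKM in the CSaY and 46.6 FPKM in the CS library, a ratio of 0.467, and LOC101900057 (FBgn0016792) at 24.9 FPKM in the CSaY and 48.6 FPKM in the CS library, a ratio of 0.512. The q of LOC101900057 was 0.0895 in the authors' deposited table, the lowest of any member, and the q of 178 members lay above 0.9. The same count over all tested genes was not made, so nothing is read from that of the members.

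Smaller differences followed in LOC101899623 (FBgn0039687), with a ratio of 1.45 and 424.9 FPKM in the CSaY against 292.5 FPKM in the CS library, and in LOC101894973 (1.36) and LOC101901276 (1.26). On the other side were LOC101889587 (0.734), LOC101899810 (0.761) and LOC101891976 (0.774). None of these differences can be set against a spread between replicates.

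**Figure D2:**
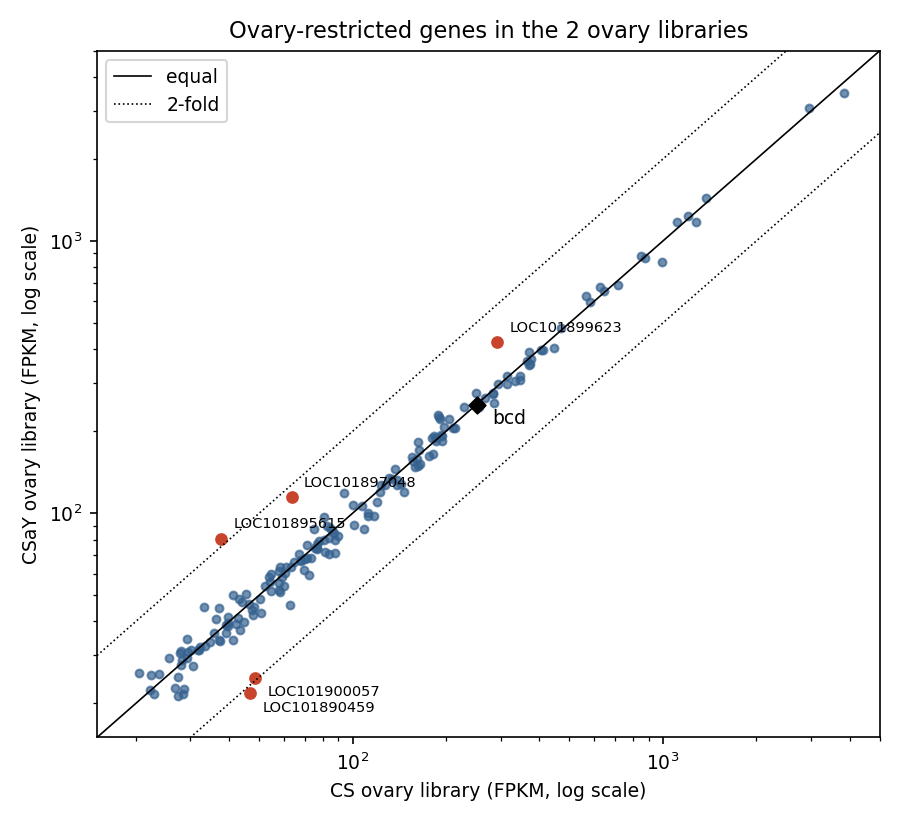
FPKM of the 180 ovary-restricted genes in the CSaY ovary library (vertical, log scale) against the CS ovary library (horizontal, log scale), with the line of equality and dotted lines at 2-fold. Most points lie near the line, 167 of them within 1.25-fold, bcd (diamond) included, and the labelled genes in red have the 3 highest and the 2 lowest ratios.

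Between CSaY and CS testes, which had 3 libraries each, 12 of the 144 tested members were called at q below 0.05. That is 8.33%, where the authors called 13% of all 10275 genes tested. The rule caps the testis levels of members. Over the 180 their median was 2.94 FPKM in CSaY and 2.76 FPKM in CS testes. Over all genes left by the exclusions it was 6.53 FPKM in CSaY and 6.43 FPKM in CS testes. Whether level bears on the share called was not tested. The other 36 members had no q in this comparison. Of the 12 calls 7 were higher in CSaY testes (4.86% of tested members, with 7.61% of all tested genes) and 5 lower (3.47%, with 5.41% of all). At a stricter q below 0.01, 3 members and 7.36% of all tested genes were called. Over all tested members the median of the log2(FPKM + 1) difference, CSaY minus CS, was 0.02, as it was over all tested genes.

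The largest rise was that of LOC101893753 (FBgn0001142, chromosome I), at 11.6 FPKM in CSaY and 2.46 FPKM in CS testes, a 4.72-fold difference (q = 0.00107 in the authors' deposited table). In ovaries this gene stood at 158.3 FPKM in CSaY and 161.8 FPKM in CS. Its relative in the same ortholog group, LOC101893922, lies on the same scaffold and rose as well, to 197.6 FPKM in CSaY testes, against 79.8 FPKM in CS testes (q = 0.00107 in the authors' deposited table). In ovaries that relative had 23.6 FPKM in the CSaY and 21.1 FPKM in the CS ovary library. Here too the split of reads between the copies is not known.

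The next 3 rises exceeded 2-fold, all of genes without a fly ortholog and all at low testis levels. LOC101891387 stood at 2.13 FPKM in CSaY and 0.568 FPKM in CS testes (3.75-fold, q = 0.0422 in the authors' deposited table). LOC101897260 stood at 1.97 FPKM in CSaY and 0.674 FPKM in CS testes (2.92-fold), and LOC101897927 at 1.30 FPKM in CSaY and 0.537 FPKM in CS testes (2.41-fold). The remaining rises were 1.64-fold in LOC101895329, 1.62-fold in LOC101890806 and 1.46-fold in LOC101896539.

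The largest fall in CSaY testes was that of bcd, to 0.577 FPKM in CSaY, against 1.96 FPKM in CS testes, 3.40-fold (q = 0.0132 in the authors' deposited table). LOC101891919 (FBgn0033095, chromosome V) stood at 1.05 FPKM in CSaY and 2.87 FPKM in CS testes, 2.72-fold lower (q = 0.00107 in the authors' deposited table), and shares its locus with another gene. LOC101891964 was 1.96-fold, LOC101894498 1.51-fold and LOC101891114 1.49-fold lower.

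**Figure D3:**
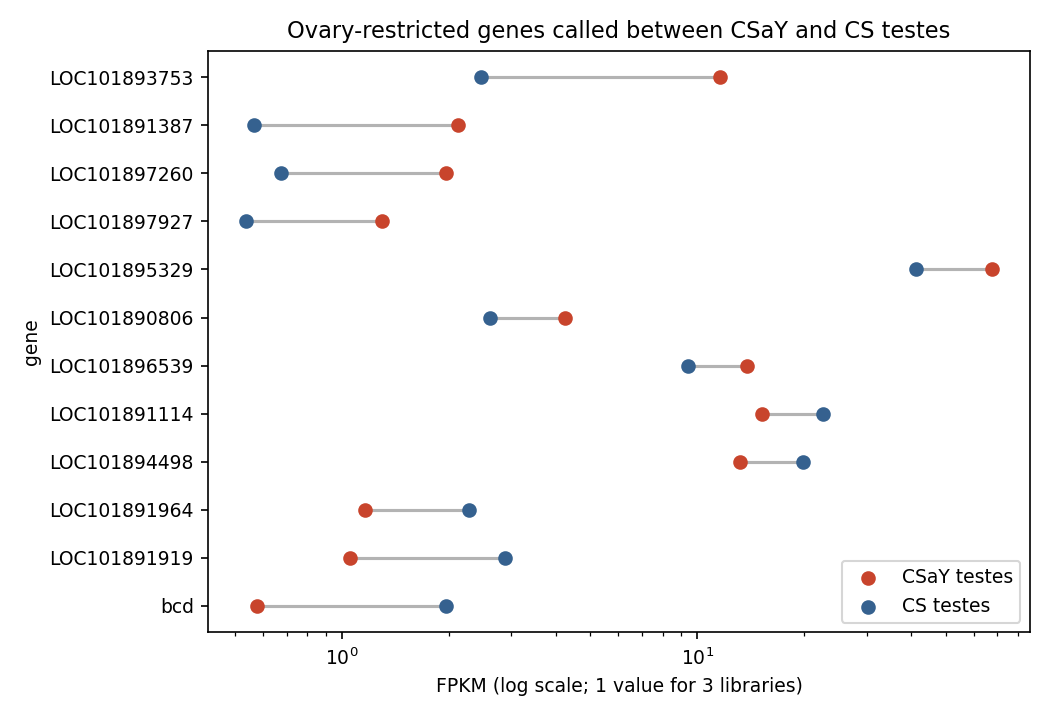
FPKM in CSaY testes (red) and CS testes (blue) of the 12 ovary-restricted genes called between them, on a log scale, 1 value for 3 libraries each, ordered by the ratio. The top 7 genes were higher in CSaY and the bottom 5, bcd lowest, were lower.

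Chromosome III carried no call of a member in testes, with 9 members on it, all tested and none of class sco. Of the 25 sco genes of chromosome III that met the same FPKM limits, 21 were tested, and of these 4 were called (19%), all 4 higher in CSaY testes, while 23.6% of all tested genes on chromosome III were called. The difference between these sets was not tested.

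In male heads, with 3 libraries for each strain, 2 of the 90 tested members were called. That is 2.22%, where the authors called 9.25% of 9441 tested genes. Head levels of members are capped by the rule as well. Over the 180 the median was 1.39 FPKM in CSaY and 1.11 FPKM in CS male heads. Over all genes left by the exclusions it was 4.66 FPKM in CSaY and 4.49 FPKM in CS male heads. Here too, whether level bears on the share called was not tested. The calls were 1 in each direction, where 3.39% of all tested genes were called higher and 5.86% lower, and at q below 0.01 no member and 5.3% of all tested genes were called. LOC101900625, a gene without a fly ortholog, stood at 8.61 FPKM in CSaY and 4.74 FPKM in CS male heads, 1.82-fold higher (q = 0.0203 in the authors' deposited table). LOC101895329 (FBgn0250837) was placed on chromosome II by scaffold but on I by ortholog. It stood at 7.90 FPKM in CSaY and 17.5 FPKM in CS male heads, 2.21-fold lower (q = 0.0165 in the authors' deposited table). In testes the same gene was called in the other direction, with 67.7 FPKM in CSaY and 41.2 FPKM in CS (q = 0.00898 in the authors' deposited table). The opposite directions in testes and male heads were not tested against each other.

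Below the threshold, most tested members were slightly higher in CSaY male heads. Of the 90 tested, 69 were above the CS value (76.7%), with a median log2(FPKM + 1) difference of 0.21, while 49.7% of all tested genes were above it, with a median of 0.00. Among genes with a mean of 1 to 5 FPKM in male heads, 46 of 57 tested members (80.7%) and 64.9% of all tested genes were above the CS value. Above 5 FPKM, 22 of 32 members (68.8%) and 45.5% of all tested genes were. The members' share was thus above that of all tested genes in both bands, and no test of this was made. The share of all tested genes itself differed between the bands, and the members were not matched by level within a band.

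None of 97 tested members was called between the CSaY and CS female head libraries, where the authors called 0.772% of 9457 tested genes. These are again single libraries, and the members were not matched by level to all tested genes.

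Between female and male heads, with strains pooled by the authors, 3 of 104 tested members were called, all higher in female heads. That is 2.88%, where 13.3% of all 9679 tested genes were called and 11.2% were called in that direction. In the pooled columns LOC101893753 had 10.7 FPKM in female heads, against 3.29 FPKM in male heads (3.24-fold, q = 0.000717 in the authors' deposited table). Those of LOC101892325 (FBgn0034249) were 1.87 FPKM in female heads, against 0.636 FPKM in male heads (2.94-fold), and those of LOC101896453 were 12.9 FPKM in female heads, against 5.82 FPKM in male heads (2.22-fold). From the means of the strain columns the folds were smaller, at 2.06 for LOC101893753 and 1.37 for LOC101896453, and LOC101892325 had 1.58 FPKM in female heads, against 0.717 FPKM in male heads. For LOC101896453 the single groups overlapped, with 8.44 FPKM in CSaY and 14.4 FPKM in CS female heads, against 9.81 FPKM in CSaY and 6.81 FPKM in CS male heads.

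The direction of most members in this comparison depends on which columns are read. In the pooled columns female heads had the higher value for 83 of the 104 tested members (79.8%) and for 60.2% of all tested genes. From the means of the strain columns they had it for 40 members (38.5%) and for 24.4% of all tested genes. The median log2 difference of all tested genes, female minus male, was 0.10 when read from the pooled columns and -0.31 when read from the strain columns. Relative to that median the members lay 0.19 higher in female heads on either kind of column. This comparison uses the same libraries as the strain comparisons of heads.

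A smaller share of the members than of all abundant ovary genes had a fly ortholog. The deposited table gives a FlyBase ID for 135 of the 180 (75%), for 82.3% of all genes left by the exclusions and for 90.5% of the genes at 20 FPKM or more in both ovary libraries. The class sco, which holds genes alone in their group and paired with a single fly gene, made up 54.4% of the members, 43.6% of all genes left and 69.8% of the abundant ovary genes. The class lr, in which no gene has a fly ortholog, made up 18.3% of the members, 14.3% of all genes left and 7.68% of the abundant ovary genes, and 12 members had no ortholog group at all (6.67%, with 3.35% and 1.86% in the same sets). The single-copy genes of chromosome III had been left out of all 3 sets.

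The 45 members without a fly ortholog were not confined to low levels. Their lower ovary value had a median of 68.5 FPKM and reached 1203 FPKM, while that of the 135 with a fly ortholog had a median of 84.7 FPKM. The ratio to the highest other value had a median of 24.4 in the 45 and 18.9 in the 135. In testes 5 of their 32 tested genes were called between the strains (15.6%), where 16.8% of all 1240 tested genes without a fly ortholog were. Of the members with a fly ortholog 7 of 112 tested were called (6.25%), where 12.5% of all 9035 such genes were. These shares were not matched for testis level.

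A chromosome was assigned by scaffold to 137 members. Of these, 21.9% lay on chromosome I, 30.7% on II, 16.8% on IV and 24.1% on V, while of all placed genes left by the exclusions 18.2% lay on I, 27.9% on II, 21.4% on IV and 23.3% on V. Chromosome III cannot be read from this because its sco genes were left out. With the 25 genes put back, it held 34 of 162 placed genes that met the FPKM limits (21%), as it held 18.2% of all placed genes outside X. Members at a locus of their own covered a median of 6505 bases from start to end, introns included, while all such genes left covered 3407 bases and the abundant ovary genes 3010 bases.

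**Figure D4:**
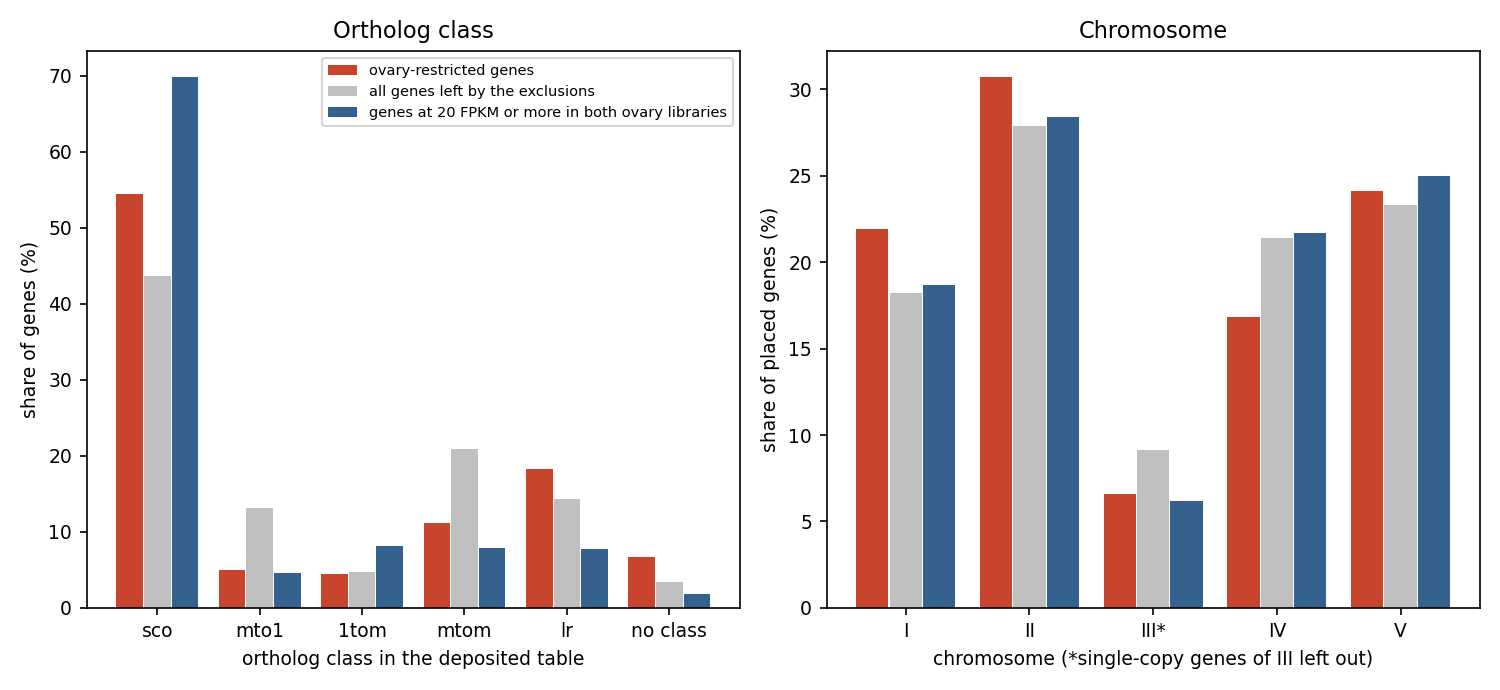
Share of genes (%) in each ortholog class (left) and, of genes placed on a chromosome, on each chromosome (right), for the ovary-restricted genes (red), all genes left by the exclusions (grey) and genes at 20 FPKM or more in both ovary libraries (blue). The lr class and genes with no class are larger shares of the red set than of the blue, 18.3% against 7.68% for lr.

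Some members belong to gene families, whose other genes differed widely in where they were expressed. Of the ortholog groups with a member, 28 held at least 1 further gene or a second member, in all 32 members and 68 further genes. Of the 60 further genes at 1 FPKM or more somewhere, the highest value lay in testes for 23, in ovaries for 19, in male heads for 10 and in female heads for 8. The other 8 were below 1 FPKM in every group. In 20 of the 28 groups a member had the highest ovary level. Members were chosen by that level and some groups hold only members, so nothing is read from this count. The split of reads among relatives is not known, so levels within a family are uncertain. The families described next were picked after their values were seen.

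LOC101894498 shares its group with 1 gene. It had 1171 FPKM in the CSaY and 1113 FPKM in the CS ovary library, against 13.2 FPKM in CSaY and 19.9 FPKM in CS testes. Its relative LOC101900596 on chromosome II was abundant everywhere and highest in testes, with 2368 FPKM in the CSaY and 2417 FPKM in the CS ovary library and 20569 FPKM in CSaY and 17436 FPKM in CS testes.

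The 3 genes of another group had different profiles. LOC101900260 stood at 686.9 FPKM in the CSaY and 714.5 FPKM in the CS ovary library and at most 6.56 FPKM elsewhere. LOC101898472 had 5.72 FPKM in the CSaY and 2.27 FPKM in the CS ovary library, and 1280 FPKM in CSaY and 837.5 FPKM in CS testes. The third gene, LOC101887490, was highest in heads, at 2194 FPKM in CSaY and 2839 FPKM in CS male heads, with 664.4 FPKM in the CSaY and 644.8 FPKM in the CS ovary library.

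In a group of 8, LOC101901454 had 863.7 FPKM in the CSaY and 877.5 FPKM in the CS ovary library and at most 11.3 FPKM elsewhere. Its relative LOC101894118 was highest in testes, with 17.5 FPKM in the CSaY and 18.4 FPKM in the CS ovary library and 568.1 FPKM in CSaY and 536.1 FPKM in CS testes. LOC101901813, LOC101891843, LOC101893944 and LOC101888550 were likewise highest in testes, at lower levels. LOC101894937 was highest in ovaries, with 81.5 FPKM in the CSaY and 83.8 FPKM in the CS ovary library, against 64.7 FPKM in CSaY and 63.4 FPKM in CS testes, and LOC101899609 was highest in CS female heads. In another group, LOC101895419 had 147.6 FPKM in the CSaY and 158.6 FPKM in the CS ovary library and at most 2.39 FPKM in heads, while its 4 relatives reached 34.5 to 71.3 FPKM in heads.

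**Figure D5:**
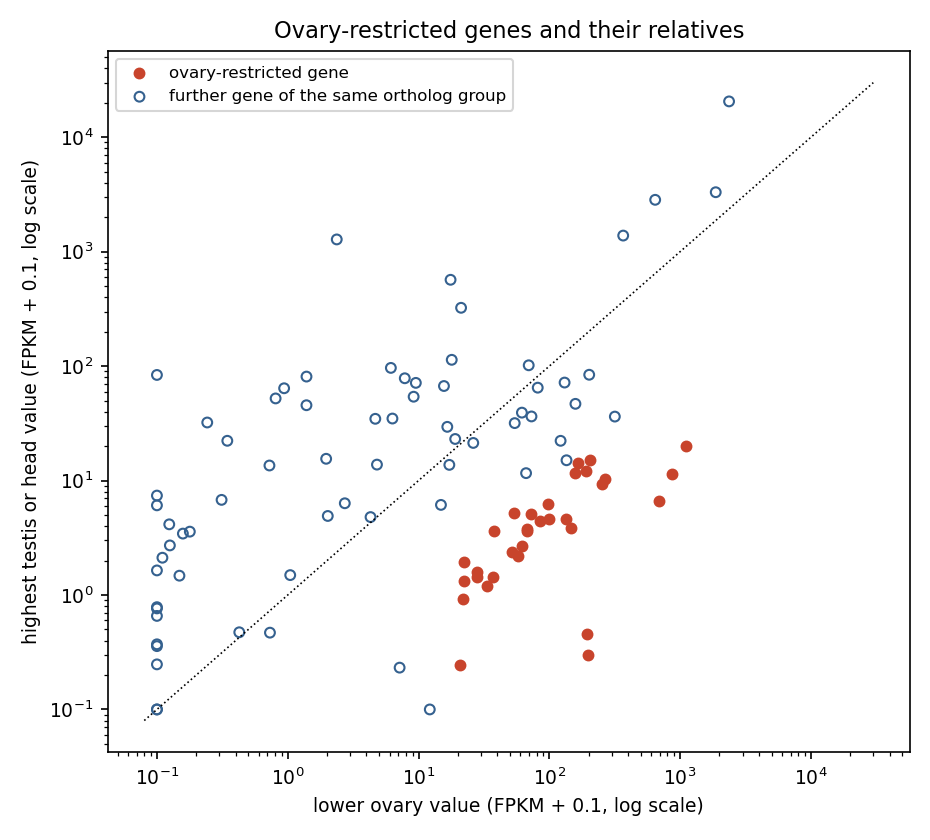
Highest testis or head value against the lower ovary value (both FPKM + 0.1, log scales) for the 32 ovary-restricted genes that share an ortholog group with another gene (red) and the 68 further genes of those groups (blue circles). The red points lie in the lower right because the rule placed them there, and the blue circles lie on both sides of the dotted line of equality, from genes near 0 to one at 20569 FPKM in CSaY testes.

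Members were scattered over the genome, with 159 scaffolds holding at least 1 and 145 holding just 1. Positions are as deposited, and no source gives the assembly they refer to. Scaffold NW_004761197, which has no chromosome in the table, held 5 members among its 6 listed genes, within 35472 bases. In order they were LOC101890865, LOC101891039, LOC101891387, LOC101891563 and LOC101891736. The first 4 stood close to each other, at 84.7 to 96.7 FPKM in the CSaY and 80.9 to 87.1 FPKM in the CS ovary library. LOC101891736 was higher, with 677.4 FPKM in the CSaY and 626.3 FPKM in the CS ovary library, against 15.7 FPKM in CSaY and 7.11 FPKM in CS testes.

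Only LOC101891563 of these 5 has fly orthologs, in a group with 25 fly genes, and the other 4 have no ortholog group. Except for LOC101891387, which spans 10926 bases, they are short, at 249 to 446 bases. The sixth gene on the scaffold, LOC101891210, belongs to a group with 23 fly genes and was listed at 0 in both ovary libraries. LOC101888272, a member on scaffold NW_004766400, belongs to the same group, and 2 further members without an ortholog group, LOC101889323 and LOC101888612, lie on that scaffold too. LOC101889323 stood at 110.1 FPKM in the CSaY and 119.7 FPKM in the CS ovary library, and LOC101888612 at 87.8 FPKM in the CSaY and 75.3 FPKM in the CS library.

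The gene next to bcd was also a member. LOC101897085 (FBgn0000071) starts 28927 bases after the end of bcd on the same scaffold and stood at 126.7 FPKM in the CSaY and 123.2 FPKM in the CS ovary library, against at most 3.39 FPKM elsewhere, in CS male heads. Another adjacent pair on chromosome II, LOC101889821 (FBgn0038608) and LOC101889991 (FBgn0038609), lies 1284 bases apart. The first stood at 192.5 FPKM in the CSaY and 193.5 FPKM in the CS ovary library and the second at 127.0 FPKM in the CSaY and 138.8 FPKM in the CS library. Scaffold NW_004765100 of chromosome V held 4 members among 42 listed genes, LOC101897812, LOC101899414, LOC101888308 and LOC101889186, of which LOC101899414 and LOC101889186 share an ortholog group and LOC101899414 and LOC101888308 share a locus.

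At the edge of the rule, the last genes inside the limit of 10% were LOC101889582, LOC101888053 and LOC101894015, whose highest other value was 9.81%, 9.86% and 9.90% of the lower ovary value. The first outside were LOC101889044, LOC101888684 and LOC101891482, at 10.01%, 10.11% and 10.15%. LOC101889044, with a lower ovary value of 361.8 FPKM, would have been among the more abundant members. At the limit of 20 FPKM, LOC101901276, LOC101891976 and LOC101899810 lay just inside, at 20.5, 21.2 and 21.6 FPKM, and LOC101894910, LOC101891337 and LOC101890139 just outside, at 19.8, 19.8 and 18.8 FPKM.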

How the data were processed

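The deposited table holds, per the file headers, 1 FPKM value for each strain, sex and tissue and 4 columns that pool the strains, and a q value for each of 6 comparisons. Cufflinks 2.2.1, Bowtie2 2.1.0.0, TopHat2 2.0.8b and CASAVA 1.8.2 were used, per the submitters' processing notes. The role of each program, the build and the adjustment behind q are not stated there. Test statistics, a score in the authors' deposited table, were not used. Read counts of single libraries were not used here, so depth is unknown.

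Calls are those of the authors at q below 0.05. No further test was run. Differences are CSaY minus CS and female minus male on log2(FPKM + 1), and folds are ratios of FPKM. Pooled ovary and female head columns lie above the mean of their strain columns (median ratios 1.27 and 1.19) and male head columns below (0.865). Of the 180 members 148 were found in a RefSeq gene table, used for names only. Named are the 10 most abundant members, the largest strain differences, called members, genes at the limits of the rule and linked or related members. Other IDs were chosen after their values were seen. Members and lists were chosen with earlier results of these data known. The code of the rule was run on simulated data with planted genes, which checks the code and says nothing about the members. Sequences were not used here. The software was pandas 2.3.3 and numpy 2.4.6 under Python 3.11.15, with plots in matplotlib 3.10.9.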

Additional observations from a re-analysis of the deposited data

How the results depend on the processing

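The number of genes that met the rule was 86 with other groups at most 1/20 of the ovary, 468 with at most 1/5, and 297 with the pooled columns, which kept 179 of the 180. From 1 ovary library alone it was 194 to 205, which by construction includes all 180. Calls in testes numbered 3 at q below 0.01 and 6 at 2-fold or more, and in male heads 0 and 1. With the chromosome assigned by ortholog, 3.09% of placed members lay on III in place of 6.57%. Of all placed genes left by the exclusions, 1.8% lay on III in place of 9.15%. The sco genes of III had been left out by their scaffold, so neither share on III can be read, and the cause was not tested. The share with a fly ortholog minus that of abundant ovary genes was -15.5 percentage points, and minus that of all genes left -7.3. Of 32 alternatives computed, 9 moved a value past the limits used (1.5 times for counts) and 23 stayed within them. Ovaries and female heads had 0 calls from the start, so stricter settings say nothing about them. No paired analysis was possible because single libraries have no columns, and for the same reason no male library could be left out. Alternatives with members alone at their locus, with the strain columns for heads and with genes of 1 to 5 FPKM in male heads, were chosen after seeing the data. Depth is unknown, so low testis and head values carry an error that cannot be given.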
